A study of Mus musculus with 12 samples.

Results

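Interferon response genes are genes whose transcription rises in cells exposed to interferons, and 36 of them form the set described here: 6 transcription factors and signal transducers, 7 GTPases, 12 antiviral effectors, 3 nucleic acid sensors, 4 genes of the ISG15 and ubiquitin system, and Parp9, Parp14, Xaf1 and Ifi35. They were taken as a list of symbols, and each gene was read from its brightest probe set, judged by the mean of the 12 arrays. Of the 36, 35 had a probe set annotated to that gene alone, among 18193 genes on the array. Messenger RNA was measured on Affymetrix arrays in G1ME, a single mouse line of megakaryocyte-erythroid progenitors that the labels call Gata1-negative. Cells were transduced either with the retrovirus MIGR1 expressing GATA1 along with green fluorescent protein (GFP), or with MIGR1-GFP alone as the vector control. GFP-positive cells were then sorted at 18 h or 42 h. There were 4 groups of biological triplicates, and the 3 arrays of a group carry the letters A, B and C. All groups share the Gata1-negative background, the retroviral transduction and the sort, and no untransduced or interferon-treated cells were analysed here.

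Type I interferons signal through the receptor chains IFNAR1 and IFNAR2 and the kinases JAK1 and TYK2, and interferon gamma through IFNGR1, IFNGR2, JAK1 and JAK2. STAT2 joins IRF9 in a complex that binds the interferon-stimulated response element in the promoters of antiviral genes, and gamma-activated sites serve the response to interferon gamma. Many of these genes also have a level in unstimulated blood cells that depends on the cell type. GATA1 is a zinc finger transcription factor that red cell precursors and megakaryocytes need in order to mature.

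Levels are deposited linear intensities, given per array in the order A, B and C or as mean ± SD (n = 3). A level is not comparable between probe sets. Changes are differences of mean log2(intensity + 16) with the SE, fitted with limma over all 12 arrays, and adjusted p-values are two-sided and cover all 10759 genes tested. A call means an adjusted p below 0.05. Array medians lay between 8.05 and 8.29, and the number of arrays limits the precision. The Gata1 probe set read 2311, 2257 and 2435 in cells labelled GATA1 at 18 h, against 2815, 2864 and 3329 in cells labelled vector. At 42 h it read 2418, 1714 and 1999 in cells labelled GATA1, against 3088, 3053 and 3268 in cells labelled vector. It was therefore dimmer under the GATA1 label (log2 change -0.36 ± 0.11, adjusted p = 0.226 at 18 h, and -0.63 ± 0.11, adjusted p = 0.00346 at 42 h), which goes against that label. No source used here places its probes on the construct or on the cells' own Gata1 locus. The cells are therefore named by their label below, as GATA1-labelled or vector-labelled, and all directions depend on those labels. Of 11 erythroid marker genes with a probe set, 10 passed the filter on low values and all 10 were called higher in GATA1-labelled cells at 42 h, with a summed intensity of 47422 to 53452 against 8535 to 10008 in vector-labelled cells. Hba-x, Alas2 and Ermap averaged at most 4.22 in the other groups and passed that filter only through the GATA1-labelled 42 h arrays. Car1 passed it only on GATA1-labelled arrays. For these genes, passing the filter and being higher are not separate results. Of the 10 markers of megakaryocyte-erythroid progenitors, 9 passed that filter, of which 1 was called higher and 4 lower at 42 h, and Cd34 lay at the bottom of the scale.

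A gene was tested if its probe set exceeded the median of its own array on at least 3 of the 12 arrays. Of the 35 genes with a probe set, 25 met this, and each of the 25 did so on all 12 arrays, with mean intensities between 20.3 and 4647. The other 10 were Ifit1 and Ifit3, RNA-binding proteins that block translation of foreign transcripts, Mx1 and Mx2, dynamin-like GTPases that trap viral components, Oasl1, Oasl2, Rsad2 (viperin), Dhx58 (LGP2), Zbp1, a sensor of Z-form nucleic acid, and Irf7, the main inducer of interferon alpha genes. Their 10 brightest probe sets read between 3.68 and 8.62 over all 12 arrays, and 9 of the 10 exceeded no array's median. The highest and lowest array differed by at most 1.46 times for any of them. The same held for their further probe sets: none of all 15 went above 8.62. The share of untested genes was 28.6% in the set and 40.9% among all genes (7434 of 18193). Isg15, the ubiquitin-like modifier, was not tested, since its probe set is also annotated to another symbol. That shared probe set read 68.3, 61.3 and 66.6 in GATA1-labelled cells at 18 h, against 48.0, 46.4 and 67.0 in vector-labelled cells. At 42 h it read 158, 152 and 153 in GATA1-labelled cells, against 43.0, 47.9 and 60.0 in vector-labelled cells. These values cannot be assigned to Isg15 alone. The plot of levels by array shows 9 of the untested genes below the array medians, and Oasl1 on both sides of them.

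**Figure D1:**
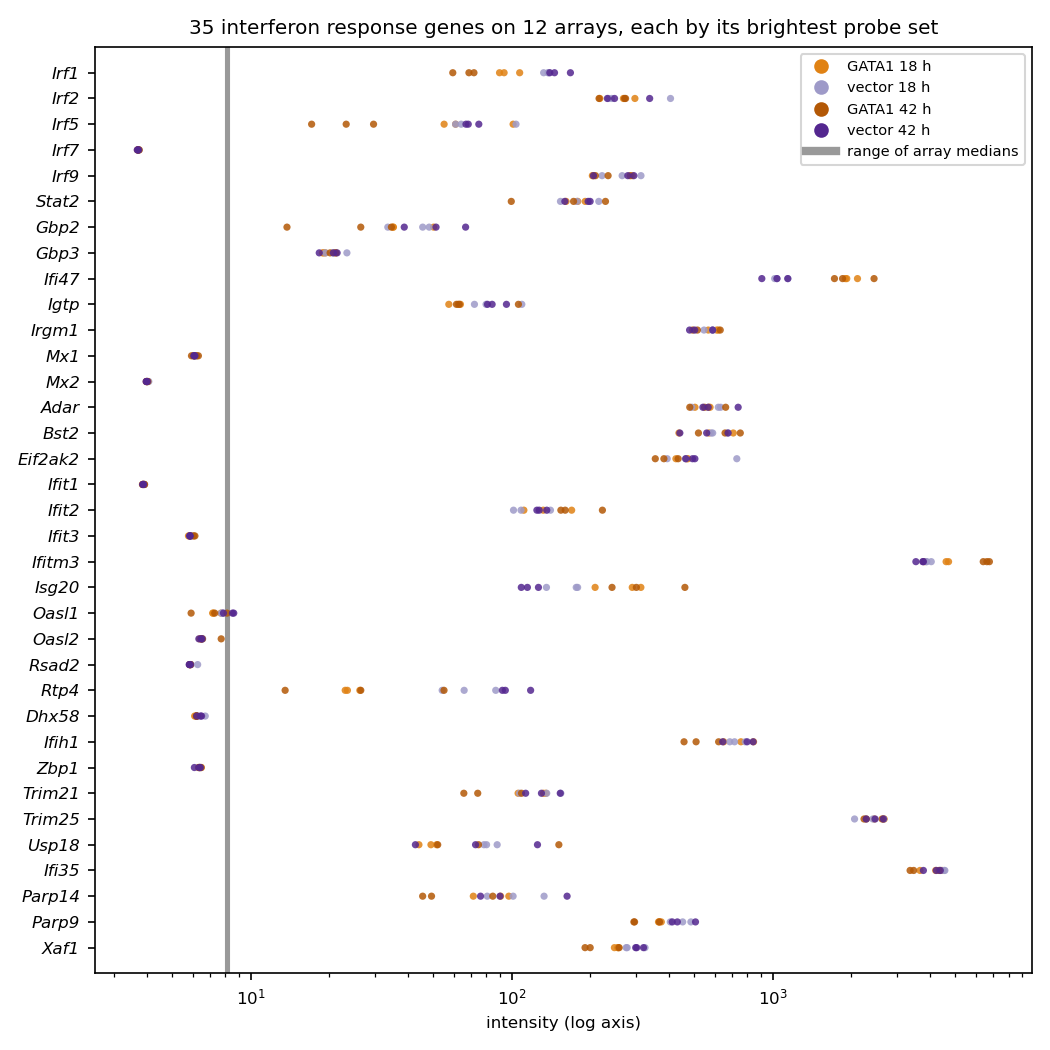
Deposited intensity (log axis) of the 35 interferon response genes with a probe set, 1 row per gene and 1 point per array for the 4 groups, named by label, with the range of array medians as a grey band. The 10 untested genes lie between 3.68 and 8.62 in every group, and the 25 tested genes have means between 20.3 and 4647.

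Promoter windows of RefSeq (GRCm38.p6), from 250 bases before to 50 after a transcription start, were found for 28 of the 36 genes. No window was found for Dhx58, Mx1, Mx2, Parp14, Parp9, Rtp4, Usp18 and Zbp1. The core of the interferon-stimulated response element, searched on both strands as GAAA, any 2 bases and GAAA, lay in at least 1 window of 15 of the 28 genes, against 3.99% of 27025 genes with a window (3.44% of 32851 windows). It was present in 11 of 21 tested genes with a window and in 3 of 6 that fell below the filter. A gamma-activated site, searched as TTCNNNGAA, which reads alike on both strands, was found for 10 of 28 genes, against 9.55% of all. These 10 were all among the 21 tested genes, and none was among the 6 below the filter. The GATA motif AGATAA (both strands) occurred in 5 of 28, against 12.7% of all. Matches of the 2 interferon motifs overlapped in 2 of the 36 windows, matches of the response element overlapped each other in 5, and AGATAA overlapped neither. A match describes the letters of a window and is not a measured binding site. The 5 windows below show a pair below the filter, Ifit1 at chr19:34640639-34640938 (plus strand) and Rsad2 at chr12:26456403-26456702 (minus strand), beside Ifitm3 at chr7:141010695-141010994 (minus strand), which was called higher in GATA1-labelled cells at 42 h, and Gbp2 at chr3:142620413-142620712 (plus strand) and Trim21 at chr7:102565433-102565732 (minus strand), which were called lower. Each is given 5′ to 3′ on the strand of its gene, and capitals mark the matches of the response element core.
Ifit1: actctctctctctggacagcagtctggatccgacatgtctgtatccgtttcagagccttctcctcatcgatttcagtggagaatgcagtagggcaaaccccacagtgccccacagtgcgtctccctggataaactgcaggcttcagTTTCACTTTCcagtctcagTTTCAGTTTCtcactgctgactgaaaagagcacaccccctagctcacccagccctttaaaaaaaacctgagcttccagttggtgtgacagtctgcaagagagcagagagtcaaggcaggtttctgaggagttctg
Rsad2: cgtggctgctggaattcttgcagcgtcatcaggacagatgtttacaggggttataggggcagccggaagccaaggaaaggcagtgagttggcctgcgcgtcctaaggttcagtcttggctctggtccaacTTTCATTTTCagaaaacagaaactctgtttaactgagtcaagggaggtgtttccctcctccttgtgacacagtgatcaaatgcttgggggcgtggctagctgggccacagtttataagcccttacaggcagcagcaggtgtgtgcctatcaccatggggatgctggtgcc
Ifitm3: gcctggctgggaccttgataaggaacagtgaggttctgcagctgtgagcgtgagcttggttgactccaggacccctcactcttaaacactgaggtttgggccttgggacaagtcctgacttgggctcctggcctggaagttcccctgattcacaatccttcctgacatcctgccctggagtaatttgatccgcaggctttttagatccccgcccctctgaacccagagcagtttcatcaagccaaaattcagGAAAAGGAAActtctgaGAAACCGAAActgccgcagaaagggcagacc
Gbp2: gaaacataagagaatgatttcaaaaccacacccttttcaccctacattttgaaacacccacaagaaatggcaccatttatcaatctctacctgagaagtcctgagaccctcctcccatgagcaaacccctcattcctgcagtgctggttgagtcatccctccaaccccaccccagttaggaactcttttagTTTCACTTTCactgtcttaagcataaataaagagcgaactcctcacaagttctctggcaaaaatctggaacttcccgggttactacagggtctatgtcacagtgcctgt
Trim21: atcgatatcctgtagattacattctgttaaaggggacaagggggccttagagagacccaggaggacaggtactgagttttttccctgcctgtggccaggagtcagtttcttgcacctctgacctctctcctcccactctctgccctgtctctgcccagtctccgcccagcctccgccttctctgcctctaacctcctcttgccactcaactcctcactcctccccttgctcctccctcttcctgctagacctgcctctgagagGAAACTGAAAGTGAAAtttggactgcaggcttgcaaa

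GATA1-labelled cells at 18 h differed from vector-labelled cells in few interferon response genes. Ifi47 was higher and Irf1 lower, the 2 calls among 25 tested genes (1 higher and 1 lower), where 1.85% of all tested genes were called (1.11% higher and 0.744% lower). At 42 h 11 of the 25 were called, 3 higher (Isg20, Ifi47 and Ifitm3) and 8 lower (Irf1, Irf5, Gbp2, Rtp4, Ifih1, Trim21, Parp9 and Xaf1), against 20.9% of all tested genes (10.3% higher and 10.6% lower). The median change of the 25 was -0.08 at 18 h, against -0.01 for all genes, and -0.16 at 42 h, against 0.001. At 18 h 8 genes had no overlap between the arrays of the constructs, 2 higher and 6 lower, against 15.4% of all tested genes (5.47% higher and 9.93% lower). At 42 h 13 had none, 4 higher and 9 lower, against 33.4% (16.8% higher and 16.6% lower). The comparisons at 18 h and 42 h share 1 estimate of the spread. The count at 42 h depended on it: a fit on the 6 arrays compared called 6 of the 25 instead of 11. Over all 10759 tested genes that fit called 1680, against 2251. With the replicate letter as a block, 13 of the 25 were called at 42 h, 4 higher and 9 lower, against 3053 of all 10759 tested genes. At 18 h the block left the count at 2.

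**Figure D2:**
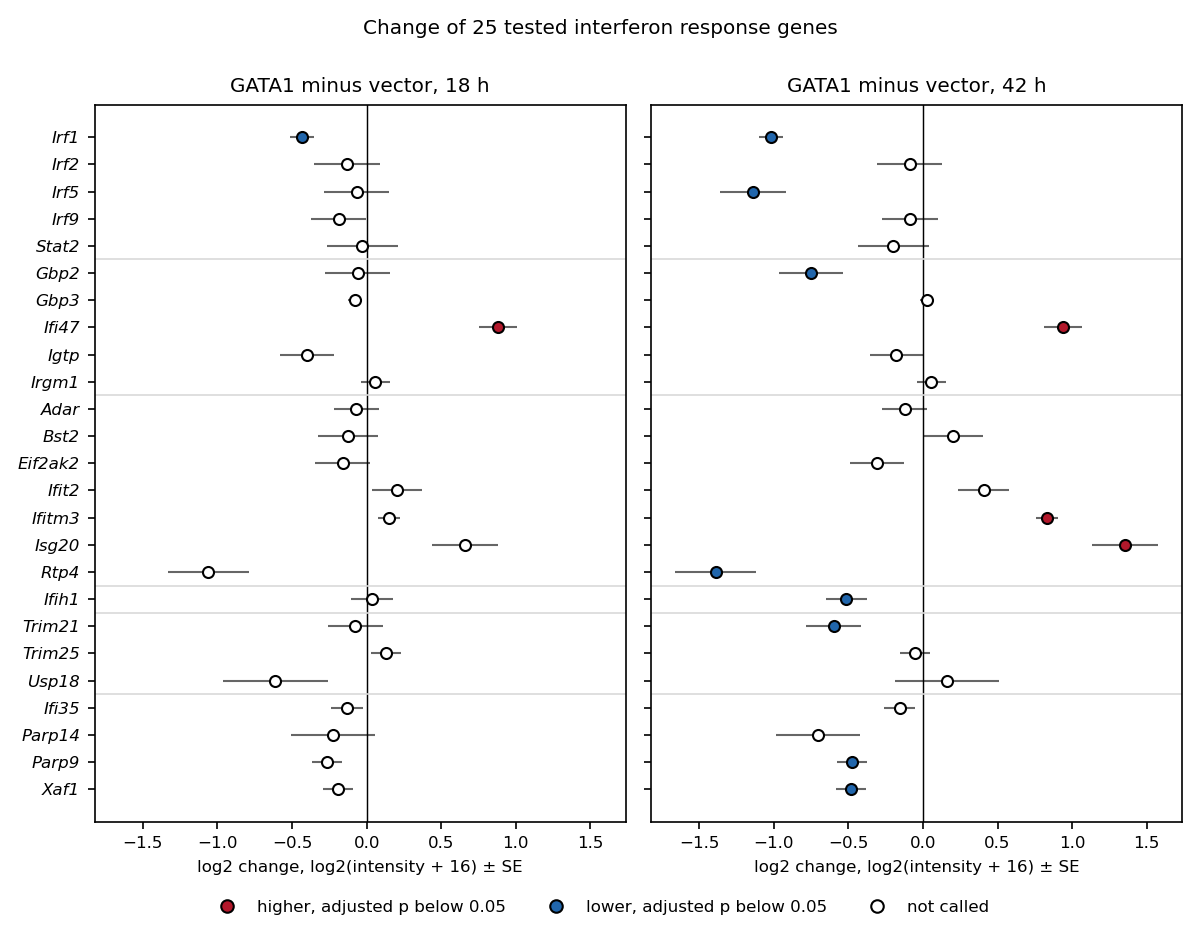
Change in mean log2(intensity + 16), GATA1-labelled minus vector-labelled, with SE bars for the 25 tested genes at 18 h and 42 h, grouped by role. Isg20 has the highest value at 42 h, 1.35, and Rtp4 the lowest, -1.39.

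Among the transcription factors, 1 of 5 tested genes was called lower at 18 h and 2 at 42 h, and none higher. Irf1, which binds interferon response elements and is itself induced by interferon gamma, read 89.9, 93.6 and 107 in GATA1-labelled cells at 18 h, against 139, 138 and 133 in vector-labelled cells. It read 68.6, 71.7 and 59.5 in GATA1-labelled cells at 42 h, against 146, 140.0 and 168 in vector-labelled cells. All 3 GATA1-labelled arrays lay below all vector-labelled ones at both times, with a gap that was wider at 42 h. The difference at 18 h was called (log2 change -0.43 ± 0.08, adjusted p = 0.0323) and so was that at 42 h (log2 change -1.02 ± 0.08, adjusted p = 2.68e-05). The call at 18 h ended without GATA1-labelled 18 h A or B or vector-labelled 18 h A, B or C (adjusted p 0.0668 to 0.132), while that at 42 h was kept when any array was left out. Irf5, a factor activated downstream of Toll-like receptors, read 55.1, 61.0 and 101 in GATA1-labelled cells at 18 h, against 61.0, 64.1 and 104 in vector-labelled cells, with the groups overlapping and C the highest array of each. Later, at 42 h, it read 17.1, 23.2 and 29.6 in GATA1-labelled cells, against 74.9, 68.2 and 66.8 in vector-labelled cells, and the groups no longer overlapped (log2 change -1.14 ± 0.22, adjusted p = 0.0051). Its second probe set was near the bottom of the scale on every array and gave 0.01 (adjusted p = 0.969 at 42 h), and a pseudocount of 64 gave -0.62. Stat2, Irf9 and Irf2 (an antagonist of Irf1) overlapped between the groups at both times and were not called. Irf9, the DNA-binding subunit of the interferon complex, averaged 243 ± 38.1 at 42 h in GATA1-labelled cells and 259 ± 47.1 in vector-labelled cells. Stat2, its partner, averaged 167 ± 64.7 in GATA1-labelled cells and 185 ± 22.1 in vector-labelled cells.

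Of the 5 tested GTPases, Ifi47 was called higher at both times and Gbp2 was called lower at 42 h. Ifi47, an immunity-related GTPase that acts on the vacuoles of intracellular pathogens, read 2111, 1897 and 1921 in GATA1-labelled cells at 18 h, against 1037, 1017 and 1143 in vector-labelled cells. The 42 h values were 2443, 1851 and 1723 in GATA1-labelled cells, against 1038, 908 and 1142 in vector-labelled cells. Every GATA1-labelled array was above every vector-labelled array at both times. The difference was called at 18 h (log2 change 0.88 ± 0.13, adjusted p = 0.00835) and at 42 h (log2 change 0.94 ± 0.13, adjusted p = 0.000696), and its interaction with time was not called (0.06, adjusted p = 0.948). Its call at 18 h ended without the 4 arrays lettered A (adjusted p = 0.0889, in a range of 0.00274 to 0.0889 over the alternatives). Gbp2, a guanylate-binding protein induced by interferon gamma, overlapped between the groups at 18 h (35.3, 50.3 and 35.1 in GATA1-labelled cells against 48.3, 45.6 and 33.6 in vector-labelled cells). It read 34.6, 26.4 and 13.8 in GATA1-labelled cells at 42 h, against 51.3, 38.8 and 66.6 in vector-labelled cells, with every GATA1-labelled array below every vector-labelled one. This dim probe set, whose name suffix marks probes that may also match other transcripts, was called lower at 42 h (log2 change -0.75 ± 0.22, adjusted p = 0.0363). That call ended without vector-labelled 18 h B, GATA1-labelled 42 h B or C or vector-labelled 42 h A or C (adjusted p 0.0522 to 0.11). A still dimmer second probe set without that suffix was also called lower at 42 h. It read 9.56, 6.09 and 7.05 in GATA1-labelled cells, against 14.3, 17.7 and 23.8 in vector-labelled cells. Irgm1, which regulates the other immunity-related GTPases, averaged 546 ± 73.1 in GATA1-labelled cells at 42 h and 524 ± 57.3 in vector-labelled cells, while Igtp averaged 76.9 ± 25.4 in GATA1-labelled cells and 86.8 ± 7.71 in vector-labelled cells. Neither was called at either time, nor was Gbp3, which ranged from 18.3 to 23.4 on all 12 arrays.

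Among the 7 tested antiviral effectors, 2 were called higher and 1 lower at 42 h, and none at 18 h. Isg20, an exonuclease that degrades single-stranded RNA, read 313, 209 and 289.7 in GATA1-labelled cells at 18 h, against 179, 136 and 177 in vector-labelled cells. By 42 h the values were 461, 300.4 and 242 in GATA1-labelled cells, against 115, 109 and 127 in vector-labelled cells. The groups did not overlap at either time, but only the later difference was called (log2 change 1.35 ± 0.22, adjusted p = 0.00201, against 0.66, adjusted p = 0.268, at 18 h), and its interaction with time was not (0.69, adjusted p = 0.321). Ifitm3, a membrane protein that blocks the fusion of entering viruses, was called between the constructs at 42 h and not at 18 h. It read 3812, 4713 and 4612 in GATA1-labelled cells at 18 h, against 3870.0, 4046 and 3890.0 in vector-labelled cells, with the groups overlapping. At 42 h the GATA1-labelled arrays stood at 6399, 6608 and 6756, against 3533, 3753 and 3776 on vector-labelled arrays, close together and far above (log2 change 0.83 ± 0.07, adjusted p = 4.56e-05). Rtp4, an RNA-binding protein that restricts flaviviruses, read 26.2, 23.0 and 23.5 in GATA1-labelled cells at 18 h, against 86.9, 65.8 and 54.2 in vector-labelled cells. It read 55.1, 26.4 and 13.6 in GATA1-labelled cells at 42 h, against 94.6, 92.2 and 118 in vector-labelled cells. The GATA1-labelled arrays were below all vector-labelled arrays at both times, but only the later difference was called (log2 change -1.39 ± 0.27, adjusted p = 0.00554, against -1.06, adjusted p = 0.116, at 18 h). Without GATA1-labelled 42 h replicate A or C the difference at 18 h was called as well (adjusted p = 0.0195 and 0.0451, in a range of 0.0195 to 1 over the alternatives). A second probe set of Rtp4, near the bottom of the scale on every array (9.32 to 10.6), gave -0.01 at 42 h (adjusted p = 0.921).

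Bst2 (tetherin), which holds budding virions on the cell surface, was not called at either time. It read 437, 570.0 and 706 in GATA1-labelled cells at 18 h, against 589, 581 and 671 in vector-labelled cells. The values at 42 h were 519, 657 and 751 in GATA1-labelled cells, against 441, 558 and 675 in vector-labelled cells, so the groups overlapped at both times. Ifit2, the only IFIT gene tested, read 223, 160.4 and 154 in GATA1-labelled cells at 42 h, against 136, 125 and 128 in vector-labelled cells, without overlap (log2 change 0.41 ± 0.17, adjusted p = 0.133). With the replicate letter as a block this difference was called (adjusted p = 0.00901). Eif2ak2, the kinase PKR that halts translation on double-stranded RNA, averaged 391 ± 40.2 in GATA1-labelled cells at 42 h and 487 ± 20.2 in vector-labelled cells, and was not called, although without vector-labelled 18 h replicate A it was (adjusted p = 0.0366, in a range of 0.0366 to 0.515 over the alternatives). The RNA-editing enzyme Adar averaged 563 ± 90.5 in GATA1-labelled cells and 614 ± 107 in vector-labelled cells and was not called either.

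Ifih1 (MDA5), a helicase that recognises long double-stranded RNA, was the one nucleic acid sensor of the set that was tested. It read 755, 649 and 844 in GATA1-labelled cells at 18 h, against 785, 685 and 714 in vector-labelled cells, with the groups overlapping. It read 620.5, 457 and 509 in GATA1-labelled cells at 42 h, against 798, 643 and 841 in vector-labelled cells, where every GATA1-labelled array lay below every vector-labelled one (log2 change -0.51 ± 0.14, adjusted p = 0.0275). The call ended without GATA1-labelled 42 h B or C or vector-labelled 42 h A or C (adjusted p 0.0765 to 0.1).

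Of the ubiquitin system, Trim21, a ubiquitin ligase that binds antibody-coated virus in the cytosol, was called at 42 h. It overlapped between the groups at 18 h (132, 135 and 106 in GATA1-labelled cells against 154, 136 and 107 in vector-labelled cells). At 42 h it read 109, 74.2 and 65.6 in GATA1-labelled cells, against 154, 113 and 130.1 in vector-labelled cells, all lower under the GATA1 label (log2 change -0.60 ± 0.18, adjusted p = 0.0442). This call was near the threshold and ended without GATA1-labelled 18 h A or B, vector-labelled 18 h B, GATA1-labelled 42 h B or C or vector-labelled 42 h A, B or C (adjusted p 0.0502 to 0.142), and a second probe set gave -0.14 (adjusted p = 0.38). Trim25, the ligase that activates RIG-I, overlapped between the groups at both times. It read 2446, 2659 and 2671 in GATA1-labelled cells at 18 h, against 2057, 2418 and 2660.1 in vector-labelled cells. It read 2623, 2283 and 2237 in GATA1-labelled cells at 42 h, against 2652, 2280.1 and 2466 in vector-labelled cells, and was called at neither time. Usp18, which removes ISG15 from proteins and restrains the type I receptor, read 44.2, 51.6 and 49.1 in GATA1-labelled cells at 18 h, against 80.2, 78.3 and 88.0 in vector-labelled cells, all lower but not called (-0.61, adjusted p = 0.749). At 42 h its arrays ranged from 52.1 to 152 in GATA1-labelled cells and from 42.8 to 126 in vector-labelled cells, so the groups overlapped. Its SDs were 52.2 and 41.9 there, against 3.79 and 5.15 at 18 h, and the fit shares 1 estimate of the spread over all 4 groups. Under 1 of 20 alternatives the Usp18 difference at 18 h was called (adjusted p = 0.0455, in a range of 0.0455 to 0.932).

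Parp9 and Parp14 are macrodomain proteins of the ADP-ribosyltransferase family, XAF1 binds the apoptosis inhibitor XIAP, and IFI35 is a cytosolic partner of NMI. Parp9 read 367, 365 and 374 in GATA1-labelled cells at 18 h, against 486, 452 and 405 in vector-labelled cells. At 42 h it read 368, 294 and 296 in GATA1-labelled cells, against 506, 431 and 412 in vector-labelled cells. All GATA1-labelled arrays were lower at both times, and the later difference was called (log2 change -0.48 ± 0.10, adjusted p = 0.00951, against -0.26, adjusted p = 0.388, at 18 h). Xaf1 read 256, 255 and 248 in GATA1-labelled cells at 18 h, against 275, 277 and 324 in vector-labelled cells. It read 258, 191 and 199.9 in GATA1-labelled cells at 42 h, against 320.0, 299 and 301 in vector-labelled cells, again without overlap at either time (log2 change -0.48 ± 0.10, adjusted p = 0.00771), while its dim second probe set gave -0.04 (adjusted p = 0.649). A fit on the 6 arrays compared ended the 42 h calls of Parp9 and Xaf1 (adjusted p = 0.0581 and 0.0508), with ranges of 0.00117 to 0.0581 and 0.00051 to 0.649 over all alternatives. Parp14 read 84.7, 49.3 and 45.6 in GATA1-labelled cells at 42 h, against 163, 90.2 and 76.0 in vector-labelled cells, with overlap and with A the highest array of both groups (log2 change -0.70 ± 0.28, adjusted p = 0.114). Once the letter was a block, its 42 h difference was called (adjusted p = 0.00373). Ifi35 averaged 3719 ± 537 at 42 h in GATA1-labelled cells and 4129.7 ± 317 in vector-labelled cells. Per array it read 3663, 4451 and 4207 in GATA1-labelled cells at 18 h, against 4562, 4381 and 4529 in vector-labelled cells. At 42 h it read 4335, 3464 and 3357 in GATA1-labelled cells, against 4383, 3775 and 4231 in vector-labelled cells, and was called at neither time.

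**Figure D3:**
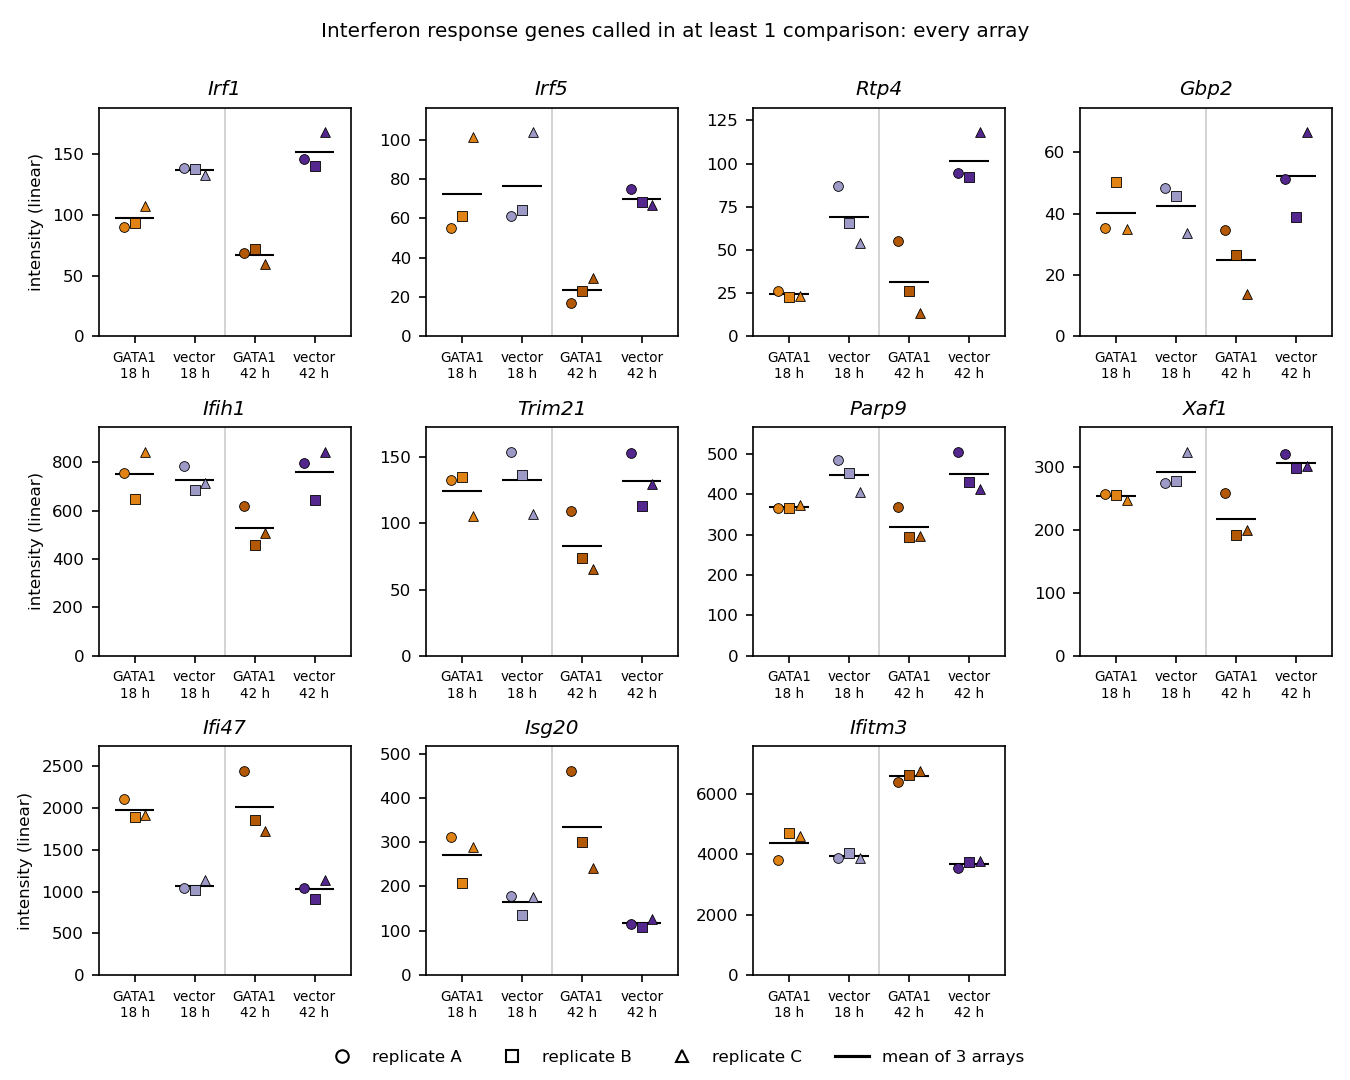
Deposited intensity on each array (linear axes from 0) of the 11 interferon response genes called at 42 h, with 1 point per array and a line at the group mean. Isg20, Ifi47 and Ifitm3 are higher in GATA1-labelled cells at 42 h, and the other 8 are lower.

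Whether the difference between GATA1-labelled and vector-labelled cells was itself larger at 42 h was tested as an interaction, and 2 of the 25 genes were called, 1 in each direction, against 4.66% of all tested genes (2.29% above 0 and 2.37% below). The difference of Ifitm3 was greater at 42 h (interaction 0.69 ± 0.10, adjusted p = 0.00581), and that of Irf1 was further below 0 at 42 h (interaction -0.58 ± 0.12, adjusted p = 0.0218). The Irf1 interaction was lost without vector-labelled 18 h B or C (adjusted p 0.0515 to 0.0561). Irf5 had an interaction of -1.07 that was not called (adjusted p = 0.102), but it was without vector-labelled 18 h replicate C (adjusted p = 0.0472, in a range of 0.0259 to 0.965 over the alternatives). For the other 8 genes called at 42 h the interaction was not called in the fit without the letter, so a larger effect at the later time was not shown for them. In GATA1-labelled cells, 4 of the 25 were called between 42 h and 18 h, 1 higher and 3 lower, against 14.6% of all tested genes (6.72% higher and 7.91% lower). Ifitm3 was higher at 42 h (log2 change 0.59 ± 0.07, adjusted p = 0.000738). Lower at 42 h were Irf1 (log2 change -0.45 ± 0.08, adjusted p = 0.00583), Irf5 (log2 change -1.15 ± 0.22, adjusted p = 0.00758) and Ifih1 (log2 change -0.49 ± 0.14, adjusted p = 0.0428). The Ifih1 call ended without GATA1-labelled 18 h A or C, vector-labelled 18 h A, B or C, GATA1-labelled 42 h B or C or vector-labelled 42 h A (adjusted p 0.053 to 0.148). Without GATA1-labelled 42 h replicate A, Trim21 and Xaf1 were also called lower at 42 h (adjusted p = 0.0238 and 0.0139, with ranges of 0.0072 to 0.848 and 0.00947 to 0.669 over the alternatives), and Xaf1 was called for the interaction (adjusted p = 0.0471, in a range of 0.0471 to 0.937). In vector-labelled cells none of the 25 was called between 42 h and 18 h by limma, and none had an unadjusted p below 0.05, against 0.0186% of all tested genes called (2 genes). With the letter as a block that count was also 0. The median change of the 25 over time was -0.12 in GATA1-labelled cells and 0.0002 in vector-labelled cells. These comparisons share arrays with those between the constructs.

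Arrays of 1 group were not alike across the set. In GATA1-labelled cells at 42 h replicate A was the highest of the 3 arrays for 18 of the 25 genes, against 41.7% of all tested genes. It read 461 for Isg20, 152 for Usp18, 106 for Igtp and 55.1 for Rtp4, each the highest of its 3 arrays. On the same array the actin control had a 3′ over 5′ log2 ratio of 0.80, against 0.38 to 0.55 on the other 11 arrays, and the Gapdh control stood at -0.11, against -0.50 to -0.26. The part of this in the gene values was not tested. Without that array 11 genes were called at 42 h and the interaction was called for 3. Ifit2 and Parp14 were highest on array A in all 4 groups, a pattern held by 10.1% of all tested genes, and Ifitm3 was lowest on array A in all 4, as were 8.28%. Without all 4 arrays lettered A, no interferon response gene was called at 18 h, 9 were called at 42 h and 1 for the interaction. Of all 10759 tested genes, that fit called 34 at 18 h, 1749 at 42 h and 259 for the interaction, against 199, 2251 and 501.

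The other genes of the pathway were counted over lists of receptors and signalling proteins, interferon genes, nucleic acid sensing, further IRF genes and other interferon-stimulated genes, with the 36 left out. Of 81 tested, 3 were called higher and 28 lower in GATA1-labelled cells at 42 h, with a median change of -0.19, against 0.001 over all genes, of which 20.9% were called (10.3% higher and 10.6% lower). At 18 h 3 were called, all lower, against 1.85% of all tested genes (1.11% higher and 0.744% lower). They were the antiviral adaptor Trim14 (-0.84, adjusted p = 0.0359), the cytosolic DNA signalling protein Sting1 (-0.60, adjusted p = 0.021) and Ifnar1 (-0.25, adjusted p = 0.0359). Each of these calls ended when single arrays were left out: Trim14 without GATA1-labelled 18 h A or B, vector-labelled 18 h A, B or C, GATA1-labelled 42 h B or vector-labelled 42 h A, B or C (adjusted p 0.058 to 0.134), Sting1 without GATA1-labelled 18 h A, B or C or vector-labelled 18 h B or C (adjusted p 0.0611 to 0.0892) and Ifnar1 without GATA1-labelled 18 h A or B, vector-labelled 18 h A or B, GATA1-labelled 42 h B or C or vector-labelled 42 h A, B or C (adjusted p 0.0548 to 0.153). With the letter as a block the count at 18 h was 5, 1 higher and 4 lower, and Ifnar1 was no longer called (adjusted p = 0.0512). The block called 358 of all 10759 tested genes at 18 h, against 199. Without GATA1-labelled 18 h replicate A or B or vector-labelled 18 h replicate B, the count was 0, where 101, 120 and 116 of all tested genes were called. At 42 h the 4 largest falls were those of Trim14 (-1.68, adjusted p = 8.5e-05), Epsti1 (-1.64, adjusted p = 0.0021), the immunoproteasome subunit Psmb8 (-1.34, adjusted p = 3.35e-05) and Ifitm1, an entry inhibitor related to Ifitm3 (-1.31, adjusted p = 0.000355). A second probe set of Psmb8 gave -0.26 (adjusted p = 0.0261). The 3 genes higher at 42 h were Ube2l6, the E2 enzyme for ISG15, the phosphatase Ptpn11 (0.63, adjusted p = 0.00608, not called with its second probe set, adjusted p = 0.305) and the nuclear body protein Sp100 (0.36, adjusted p = 0.00717, but -0.07 with its second probe set). Ube2l6 read 42.1, 40.6 and 45.7 in GATA1-labelled cells at 42 h, against 7.70, 7.95 and 8.0 in vector-labelled cells, where it lay at the bottom of the scale. Its change of 1.30 (adjusted p = 2.43e-08) therefore depends on the pseudocount and was 2.30 with a pseudocount of 1 and 0.57 with 64.

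Within the same family, Ifitm1 and Ifitm3 changed in opposite directions. Ifitm1 read 3129.6, 4171 and 3609.9 in GATA1-labelled cells at 18 h, against 3011, 3591 and 3086 in vector-labelled cells. Its 42 h values were 1050.3, 1346 and 1082 in GATA1-labelled cells, against 3437, 2996 and 2331 in vector-labelled cells, with every GATA1-labelled array below every vector-labelled one. Its interaction with time was called (interaction -1.48 ± 0.23, adjusted p = 0.00643), as it was in the other direction for Ifitm3, but that of Ifitm1 was not called without the 4 arrays lettered A (-1.34, adjusted p = 0.0648). Over the other pathway genes the interaction was called for 9 of the 81, 2 higher and 7 lower, against 4.66% of all tested genes, among them Psmb8 (-1.27, adjusted p = 0.00228), Nmi (-0.81, adjusted p = 0.00877) and Ube2l6 (1.26, adjusted p = 1.08e-06). The second probe set of Psmb8 gave an interaction of -0.15 (adjusted p = 0.682), and the Nmi interaction was not called without the arrays lettered A (adjusted p = 0.0621). The count of 9 was 5 without GATA1-labelled 18 h replicate B, without vector-labelled 18 h replicate A or without vector-labelled 42 h replicate A or B. Of all tested genes, those fits called 323 to 387 for the interaction, against 501. Without the 4 arrays lettered A only 1 was called higher and 2 lower, and with second probe sets 0 of 33 were called. Between 42 h and 18 h, 3 of the 81 were called higher and 22 lower in GATA1-labelled cells, against 14.6% of all tested genes (6.72% higher and 7.91% lower), and none was called in vector-labelled cells.

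The receptor and signalling list held 12 tested genes, of which 1 was called higher and 8 lower at 42 h, against 20.9% of all tested genes (10.3% higher and 10.6% lower), with a median change of -0.54, against 0.001 over all genes. The genes given here, apart from Ifnar1, were chosen after their values were seen. Ifnar1, a chain of the type I interferon receptor, read 103, 107 and 113 in GATA1-labelled cells at 18 h, against 129.6, 141 and 124 in vector-labelled cells. It read 89.0, 81.7 and 84.4 in GATA1-labelled cells at 42 h, against 138, 141 and 140.0 in vector-labelled cells. The groups did not overlap at either time (log2 change -0.62 ± 0.05, adjusted p = 2.48e-05 at 42 h), though a second probe set gave -0.20 at 42 h (adjusted p = 0.467). Jak1, the kinase that serves all interferon receptors, read 915, 963 and 1078 in GATA1-labelled cells at 42 h, against 1663, 1992 and 1556 in vector-labelled cells, also without overlap (log2 change -0.80 ± 0.11, adjusted p = 0.000898). The transcription factor Stat3 averaged 937 ± 56.7 at 42 h in GATA1-labelled cells and 1666 ± 251 in vector-labelled cells (log2 change -0.81 ± 0.11, adjusted p = 0.000776). Ifnar2, the other chain of that receptor, and Il10rb, a chain of the type III interferon receptor, had changes of -0.41 (adjusted p = 0.0053) and -0.45 (adjusted p = 0.00315), and neither was called with its second probe set (adjusted p = 0.417 and 0.859). For the interferon gamma receptor chains the changes were -0.66 (adjusted p = 0.00147) for Ifngr1 and -0.85 (adjusted p = 0.029) for Ifngr2, a dim probe set whose call ended without GATA1-labelled 42 h A or B or vector-labelled 42 h B or C (adjusted p 0.0553 to 0.0807). The second probe set of Ifngr2 gave -0.00302 (adjusted p = 0.992). Ptpn6, a phosphatase that restrains JAK kinases, was lower as well (log2 change -0.98 ± 0.11, adjusted p = 0.00017), with no call for its second probe set (adjusted p = 0.0552). Jak2 (-0.22, adjusted p = 0.442) and Tyk2 (-0.07, adjusted p = 0.649) were not called.

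**Figure D4:**
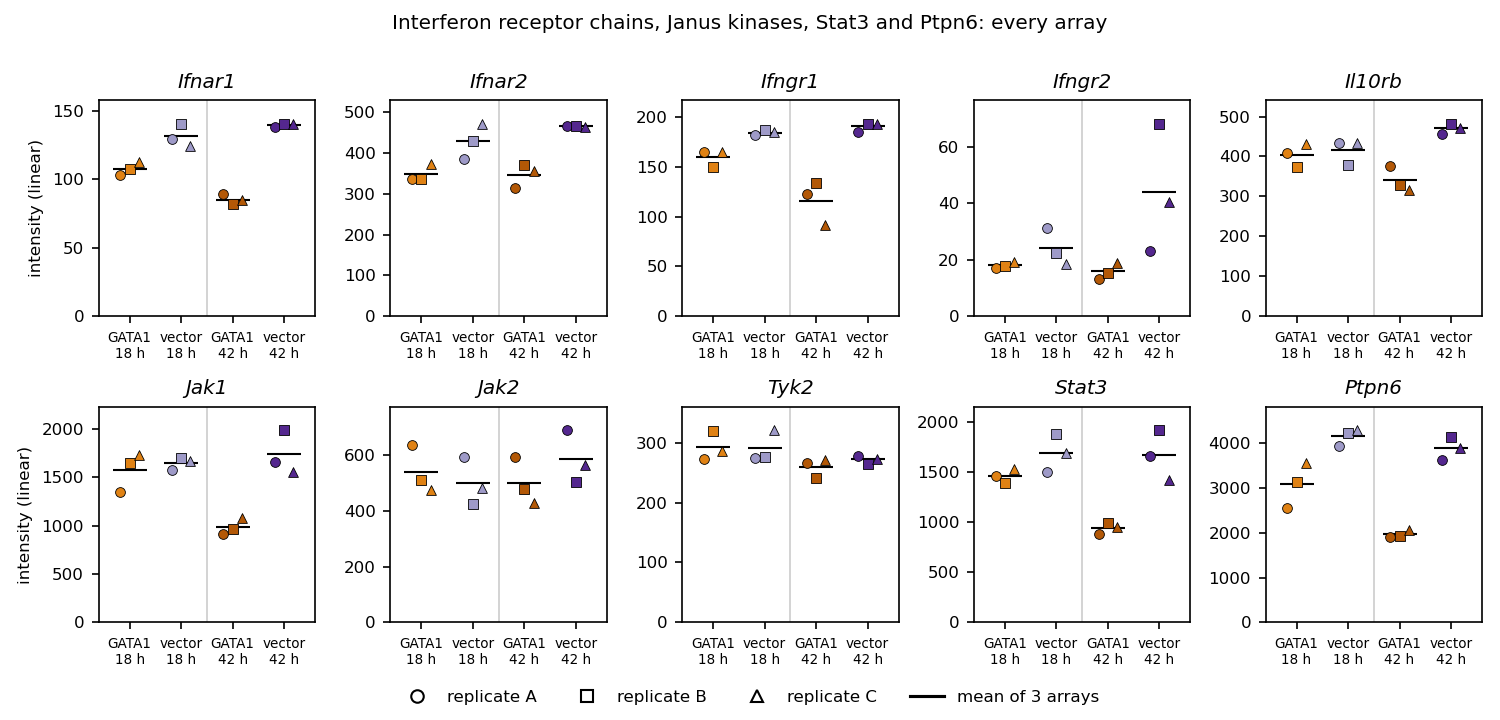
Deposited intensity on each array (linear axes from 0) of interferon receptor and signalling genes in the 4 groups, with 1 point per array and a line at the group mean. At 42 h Jak1 lies between 915 and 1078 in GATA1-labelled cells and between 1556 and 1992 in vector-labelled cells.

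Of 7 interferon genes with a probe set, 1 passed the filter on low values, Ifna5, at no more than 14.3 on any array and with no call, and the others did not exceed 5.78. Irf4 and Irf8 did not exceed 5.32 and 6.90 and were not tested. Markers of other blood cells moved between the same groups. The summed intensity of 9 megakaryocyte and platelet markers, all past the filter, was 38394 to 47919 in GATA1-labelled cells at 42 h, against 18300.0 to 19074 in vector-labelled cells, with 6 called higher and 1 lower. Vwf passed the filter only on GATA1-labelled arrays, with 5.44 ± 0.10 at 18 h and 5.28 ± 0.02 at 42 h in vector-labelled cells. Among the progenitor markers, at 42 h Kit averaged 42.9 ± 2.18 in GATA1-labelled cells and 631 ± 173 in vector-labelled cells, and Gata2 averaged 623 ± 176 in GATA1-labelled cells and 3208 ± 679 in vector-labelled cells. The summed intensity of 9 mast cell and basophil markers was 121 to 152 in GATA1-labelled cells at 42 h, against 1993 to 3364 in vector-labelled cells, and 3 of the 9 passed the filter. At 18 h that sum was 908 to 1010.3 in GATA1-labelled cells and 1903 to 2482 in vector-labelled cells. Of the 3 tested, Cpa3 (49.9 ± 15.9 in GATA1-labelled and 2008 ± 541 in vector-labelled cells) and Kit, also a progenitor marker, were called lower at 42 h. Hdc was not called (16.3 ± 2.42 and 14.8 ± 0.03), and the markers that did not pass lay at the bottom of the scale. The summed intensity of 8 macrophage and monocyte markers at 42 h was 1267 to 1467 in GATA1-labelled cells against 2083 to 2882 in vector-labelled cells, with Cd14, Adgre1 and Mpeg1 at the bottom of the scale. Of the 5 that passed, only 1 was called, and it was lower. Most of the sum came from Lyz1 (985 ± 68.8 in GATA1-labelled and 1799 ± 334 in vector-labelled cells) and Lyz2 (321 ± 42.3 and 541 ± 110). Csf1r averaged 20.4 ± 0.58 in GATA1-labelled cells and 20.2 ± 0.73 in vector-labelled cells. For 7 markers of plasmacytoid dendritic cells, of which 4 passed, the sums overlapped (1534 to 1602 in GATA1-labelled cells against 1384 to 1628 in vector-labelled cells), and Siglech, Irf8 and Ly6d were at the bottom. At 42 h the sums of 8 neutrophil markers were 85.1 to 115 in GATA1-labelled cells and 142 to 235 in vector-labelled cells, and those of 10 lymphoid markers were 79.5 to 108 in GATA1-labelled cells and 116 to 191 in vector-labelled cells, with 2 of each list past the filter. The 2 neutrophil markers tested were called in opposite directions, Prtn3 higher (63.5 ± 16.1 in GATA1-labelled cells and 23.5 ± 3.06 in vector-labelled cells) and Mpo lower (9.0 ± 2.80 in GATA1-labelled cells and 148 ± 48.9 in vector-labelled cells). Their part in the changes of the interferon response genes was not tested. In such bulk samples, fewer cells of a type and less RNA per cell cannot be told apart.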

How the data were processed

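The series measured gene expression on 12 Affymetrix arrays, 3 in each of 4 groups. The authors deposited 1 linear intensity for each of 45101 probe sets and array. GCRMA and MAS5 are listed in the submitters' processing notes, and no source used here says which of them gave these intensity values or how they were scaled. No detection calls were used, and no further normalization was applied. Symbols came from the platform annotation (1 symbol for 34945 probe sets, several for 932, none for 9160), and 34741 matched RefSeq genes. The 36 genes and all gene lists were chosen with earlier results of these data known. The 25 tested genes were fitted together with all 10759 tested of 18193 genes in limma 3.58.1 (R 4.3.3, lmFit and eBayes, 4 groups, two-sided tests, Benjamini-Hochberg adjustment, threshold 0.05). The fit was tested on simulated data. The 5 comparisons were GATA1-labelled against vector-labelled cells at 18 h and at 42 h, the difference of these effects, and 42 h against 18 h within each construct. Genes shown by array are those called in any comparison and the 6 brightest of the set, and Ifit2, Parp14 and Usp18, which were chosen after their values were seen. Of other pathway genes, the rule allowed up to 4 rises and 4 falls per comparison, and any gene named outside it is said to be chosen after its values were known.

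Pairing by replicate letter was checked. Deviations from group means of same-letter arrays correlated at 0.31 to 0.66 between the 18 h groups, 0.25 to 0.60 between the 42 h groups and 0.36 to 0.54 between the vector-labelled groups (3 pairs each, across genes). Between the 18 h groups and between the vector-labelled groups each array correlated best with its own letter, so there the letters pair the samples. At 42 h vector-labelled B correlated at 0.39 with GATA1-labelled C, above 0.25 for the arrays lettered B and 0.33 for those lettered C. The letters were therefore not taken to pair the 42 h groups. Between the GATA1-labelled groups the range was 0.05 to 0.61, with 1 pair under 0.1, so there the letters were not taken to pair them. Different letters gave -0.63 to 0.39. At 18 h the block moved the number of all genes called to 358, against 199 without it. At 42 h it moved that number to 3053, against 2251. Changes, SEs and p-values are from the fit without the letter unless an alternative is named. This main fit leaves out the pairing by letter at 18 h and between the vector-labelled groups, which the block takes into account. The labels state no such pairing, and the main fit was set without the letter for that reason. At most 0.0266% of values were identical between 2 arrays. The labels do not say which cultures the triplicates came from, so p-values measure the spread between these arrays. Alternatives changed the pseudocount (1 or 64), the filter on low values (none, or above 100 on at least 3 arrays), the normalization (quantile), the block, the arrays fitted, the probe set, array weights, and the arrays left out.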

Additional observations from a re-analysis of the deposited data

Results flagged for a closer look

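The difference between GATA1-labelled and vector-labelled cells was not the same at both times for 2 genes, by the interaction term of the limma fit. For Ifitm3 the change at 42 h exceeded that at 18 h by 0.69 (adjusted p = 0.00581), with all 3 GATA1-labelled arrays above all vector-labelled arrays at 42 h and overlapping groups at 18 h. For Irf1 the interaction was -0.58 (adjusted p = 0.0218), with all 3 GATA1-labelled arrays below all vector-labelled arrays at both times.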

How the results depend on the processing

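Each result was recomputed under 22 alternatives, those for the other pathway genes chosen after seeing the data. Of the 19 calls of interferon response genes, 7 were kept under each alternative that could be fitted: Irf1 at 42 h and over time, Ifitm3 in 3 comparisons, and Ifi47 and Isg20 at 42 h. Each of these genes has only 1 probe set, so the second probe set could not be fitted for any of them. The number called at 18 h (2) was 1 with no filter, 0 without the 4 arrays lettered A, 0 of 10 with second probe sets, and 1 to 3 when 1 array was left out. At 42 h (11) it was 13 with the replicate block, 6 with only the arrays compared, 1 of 10 with second probe sets (Gbp2) and 8 to 12 when 1 array was left out. Of all 10759 tested genes, 3053 were called at 42 h with the block and 1680 with only the arrays compared, against 2251. The interaction (2) gave 4 with the replicate block, 0 with second probe sets, 1 without the arrays lettered A and 1 to 3 leaving out 1 array, with 1 in the absence of vector-labelled 18 h replicate B. Over all 10759 tested genes the interaction was called for 846 with the block, against 501. In GATA1-labelled cells over time (4) the counts were 7 with the block, 9 with array weights, 0 with second probe sets and 3 to 6 leaving out 1 array. The calls over time among all 10759 genes also rose, to 2315 with the block and 2929 with array weights, against 1574. In vector-labelled cells the count stayed 0 throughout, and array weights gave 2927 of all genes at 42 h, against 2251. The interaction has no fit on only the arrays compared, since it needs all 4 groups. Between the GATA1-labelled groups and between the 42 h groups, not every array correlated best with its own letter. Over those groups and the interaction the letters were not taken as pairs. Second probe sets turned the sign for Irf5 (0.0101 at 42 h, 0.0137 over time and 0.0266 for the interaction), Ifnar1 over time (0.11), Il10rb at 42 h (0.022) and Sp100 (-0.0694 at 42 h and -0.0529 for the interaction). Without the arrays lettered A, these interferon response genes were not called (adjusted p): Ifi47 (0.0889) and Irf1 (0.392) at 18 h, Irf5 (0.0639), Gbp2 (0.0889) and Ifih1 (0.0768) at 42 h, Ifih1 over time (0.0847) and Irf1 for the interaction (0.126). Of the other pathway genes named, the 3 calls at 18 h (0.102 to 0.32) and Sp100 at 42 h (0.0528) were also lost. Beside the calls named, the block added Ifit2 and Parp14 at 42 h and Ifit2, Parp14 and Trim21 over time in GATA1-labelled cells, added Irf5 and Ifih1 for the interaction, and ended the Ifnar1 call at 18 h (adjusted p = 0.0512). Dim genes are limited by the pseudocount: a value of 64 gave -0.81 for Rtp4 and -0.39 for Gbp2 at 42 h.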
